A study of Mus musculus with 2 samples.

Results

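N6-methyladenosine (m6A) is a mark on mRNA that acts largely through proteins that bind it, called readers. The 9 genes described here are the readers with a YTH domain (Ythdc1, Ythdc2, Ythdf1, Ythdf2, Ythdf3), the IGF2BP family of RNA binding proteins (Igf2bp1, Igf2bp2, Igf2bp3), and Meioc, whose product works as a partner of YTHDC2. All 9 were among the 36547 gene symbols of the 2 count tables. The samples were testes of 12-week-old C57BL/6 mice, 1 library from wild-type (WT) animals and 1 from Alkbh5-/- knockout (KO) animals, which lack the gene of the RNA demethylase ALKBH5. The introduction of the study describes 1 mouse per genotype and its methods describe 3, so a library may pool animals. With 1 library per genotype no difference between WT and KO has a replicate check, and no test was made between them.

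The YTH domain recognizes m6A. YTHDC1 is the nuclear reader and takes part in splicing, 3′ end choice and export. YTHDC2 is an RNA helicase of the meiotic germ line that, together with MEIOC, lets spermatogonia leave the mitotic programme and hold meiotic prophase. YTHDF1, YTHDF2 and YTHDF3 are the cytoplasmic readers, linked to translation and to mRNA decay through the CCR4-NOT deadenylase. The IGF2BP proteins are fetal-type RNA binding proteins that stabilize mRNAs such as those of growth genes. ALKBH5 removes m6A, the mark that these proteins read, and the data hold transcript levels only, neither the mark nor protein.

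On the mouse build GRCm38 (GENCODE vM21), all 9 genes were annotated as protein-coding. Ythdc1 lies on chromosome 5 from 86804221 to 86836659, Ythdc2 on chromosome 18 from 44827746 to 44889724, and Meioc on chromosome 11 from 102663716 to 102682237. Ythdf1 lies on chromosome 2 from 180904377 to 180920949, Ythdf2 on chromosome 4 from 132184912 to 132212303, and Ythdf3 on chromosome 3 from 16183212 to 16217037. Igf2bp1 lies on chromosome 11 from 95957163 to 96005940, Igf2bp2 on chromosome 16 from 22059009 to 22163299, and Igf2bp3 on chromosome 6 from 49085223 to 49214957. Whether the counting used the strand is not given in the sources used here. This touches Igf2bp3, whose 3′ end overlaps the 3′ end of Malsu1 on the other strand over 1529 bases, from 49085223 to 49086751.

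The values are counts of unique molecular identifiers (UMIs, 1 per captured RNA molecule) per gene and cell. The WT library held 5756 cells with 80283221 UMIs and the KO library 7012 cells with 82056760 UMIs, and 45 cell barcodes occurred in both. The cells of both libraries formed 16 clusters, grouped by marker genes into 11 cell classes. The names were rebuilt here, so a class is called X-like and its borders may not be those of the study. The sperm-like clusters, from testis, had genes such as Prss58, Tnp2, Prm1 and Spem1 among their leading genes. No class was named for elongating spermatids, so sperm-like cells may include them. Spermatogonia-like cells numbered 154 in WT and 917 in KO, early spermatocyte-like cells 67 and 267, and Leydig-like cells 96 and 1182, whereas sperm-like cells numbered 2405 in WT and 1305 in KO. The WT macrophage-like class had 23 cells and the WT endothelial-like class 1 cell, and the latter was left out of all ratios. Alkbh5 itself, the deleted gene, had 607 UMIs in WT and 5 in KO. Levels are UMIs of a gene per 1000000 UMIs of the class (CPM), with exact Poisson 95% intervals in parentheses. Intervals cover counting error only. The cells were clustered on their expression of genes, so the differences of level between classes are a description.

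The sequences upstream of the start sites of Meioc and Igf2bp3 are shown because these members peaked at opposite ends of the germ line, at meiotic entry and in sperm-like cells. Both are from RefSeq on GRCm38.p6 and run 5′ to 3′ toward the start of the gene. Capitals mark matches, on either strand, to 4 motifs: CNCCTCAG (described for STRA8 and MEIOSIN), TGACGTCA (the cAMP response element), CACGTG (an E-box) and GCGGGA (E2F-type). The Meioc window is chr11:102665335-102665584 on the plus strand, and it lies inside the first intron of a GENCODE transcript that starts further upstream. The Igf2bp3 window is chr6:49214958-49215204 on the minus strand.
Meioc: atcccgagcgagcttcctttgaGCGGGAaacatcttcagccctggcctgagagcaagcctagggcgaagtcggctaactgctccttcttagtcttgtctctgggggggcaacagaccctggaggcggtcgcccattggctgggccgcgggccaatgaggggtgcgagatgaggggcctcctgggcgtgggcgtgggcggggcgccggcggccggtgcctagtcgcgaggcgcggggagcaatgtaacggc
Igf2bp3: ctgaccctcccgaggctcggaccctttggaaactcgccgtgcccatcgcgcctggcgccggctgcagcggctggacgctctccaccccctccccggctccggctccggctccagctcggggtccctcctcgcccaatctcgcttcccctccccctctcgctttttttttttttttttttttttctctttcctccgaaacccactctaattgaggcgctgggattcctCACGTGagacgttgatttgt
The Meioc window held 1 GCGGGA match and the Igf2bp3 window 1 CACGTG match. Among 32851 promoter windows of 250 bases, 16.9% held GCGGGA, 6.02% held CACGTG, 6.42% held CNCCTCAG and 1.55% held TGACGTCA. A match is a description of letters and not a binding site.

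The members fell into distinct timings along the germ line. Meioc and Ythdc2 were highest in early spermatocyte-like cells in both libraries, Igf2bp1 in spermatogonia-like cells, and Igf2bp3 in sperm-like cells. Ythdc1 and Ythdf2 were high in spermatogonia-like and early spermatocyte-like cells, and Ythdc1 was high once more in early-stage round spermatid-like cells. Ythdf1 was highest in the earliest germ cells, and Ythdf3 was present in every class at moderate levels. Igf2bp2 was nearly absent, with 42 UMIs in the WT library and 87 in the KO library.

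**Figure D1:**
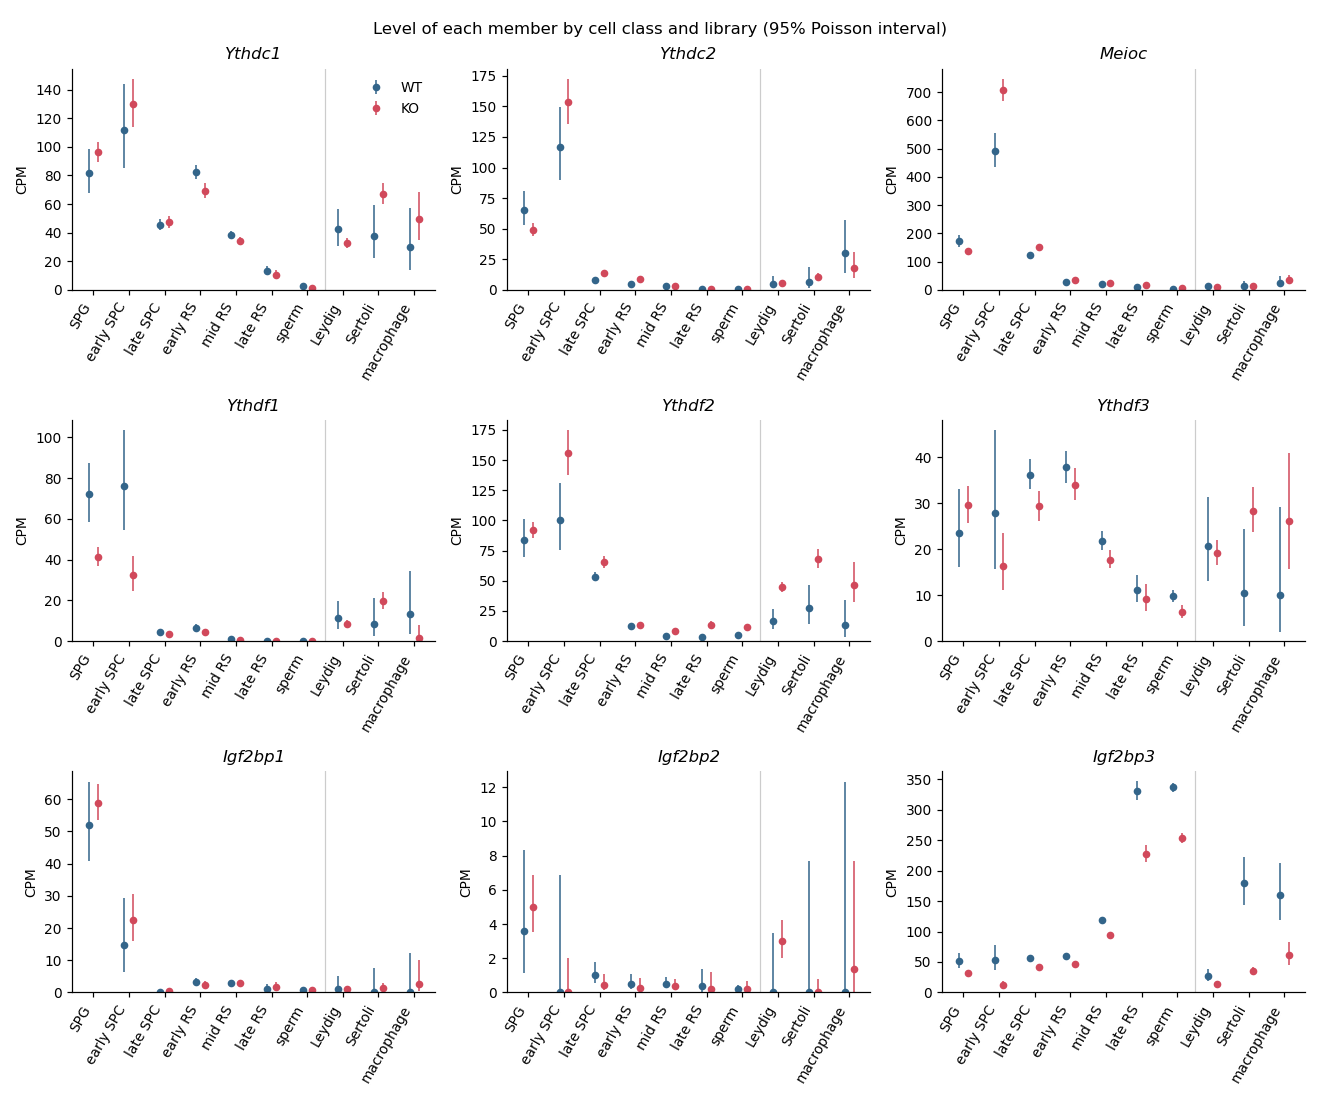
Level of each of the 9 genes (vertical axis, CPM, a separate linear scale for each gene) in 10 cell classes (horizontal axis; SPG, spermatogonia-like; SPC, spermatocyte-like; RS, round spermatid-like), with WT in blue, KO in red and vertical bars for the exact Poisson 95% interval; the thin grey line divides germ from somatic classes. Meioc reaches 493 CPM in WT and 707 CPM in KO early spermatocyte-like cells, whereas Igf2bp3 reaches 337 and 254 CPM in sperm-like cells.

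Ythdc1, the nuclear reader, had 82.0 CPM (67.7 to 98.5) in WT and 96.1 CPM (89.2 to 103) in KO spermatogonia-like cells, and 112 (85.1 to 144) and 130 (114 to 147) CPM in early spermatocyte-like cells. Late spermatocyte-like cells held 45.7 CPM in WT and 47.3 CPM in KO. In the next class, early-stage round spermatid-like cells, the level was 82.3 CPM (77.2 to 87.5) in WT and 69.2 CPM (64.3 to 74.4) in KO. Ythdc1 thus had a second, smaller maximum after meiosis, 1.80 times the late spermatocyte-like level in WT and 1.46 times in KO. It then stood at 38.5 and 33.9 CPM in mid-stage and 13.2 and 10.2 CPM in late-stage round spermatid-like cells, and at 2.48 and 1.56 CPM in sperm-like cells. In Leydig-like cells the level was 42.4 CPM in WT and 32.7 CPM in KO, and in Sertoli-like cells at 37.6 and 66.9 CPM. Macrophage-like cells held 30.1 and 49.7 CPM, so Ythdc1 was present in all 3 somatic classes compared.

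Ythdc2, the meiotic helicase, had 65.6 CPM (52.9 to 80.5) in WT and 49.2 CPM (44.2 to 54.5) in KO spermatogonia-like cells. In early spermatocyte-like cells the level was 117 CPM (90.0 to 150) in WT and 153 CPM (136 to 172) in KO. The level was 1.78 times that of spermatogonia-like cells in WT and 3.12 times in KO. In late spermatocyte-like cells it was down to 7.92 CPM in WT and 14.0 CPM in KO, 14.8 and 10.96 times below the early spermatocyte-like level. It stayed under 9 CPM in all round spermatid-like and sperm-like classes of both libraries. Leydig-like cells had 4.71 CPM in WT and 5.61 CPM in KO, and Sertoli-like cells 6.26 and 10.5 CPM. Macrophage-like cells held 30.1 CPM (13.8 to 57.1) from 9 UMIs in WT and 17.9 CPM (9.55 to 30.7) from 13 UMIs in KO.

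Meioc, the partner of YTHDC2, had its maximum in the same class as Ythdc2. It was at 173 CPM (152 to 196) in WT and 136 CPM (128 to 145) in KO spermatogonia-like cells. In early spermatocyte-like cells the level was 493 CPM (435 to 556) in WT and 707 CPM (669 to 746) in KO, 2.85 and 5.19 times the spermatogonia-like level. Late spermatocyte-like cells held 122 CPM in WT and 153 CPM in KO. Within that class the cluster with Piwil1 among its leading genes held 162 CPM in WT and 203 CPM in KO, and the cluster with Pabpc6 held 95.4 and 106 CPM. Meioc then stood at 26.9 and 35.4 CPM in early-stage round spermatid-like cells and at 3.62 and 5.56 CPM in sperm-like cells. Late spermatocyte-like cells were thus 4.05 times (WT) and 4.62 times (KO) below the Meioc maximum, a smaller step than that of Ythdc2. Meioc was at 12.2 CPM in WT and 8.51 CPM in KO Leydig-like cells, and at 14.6 and 12.0 CPM in Sertoli-like cells. Macrophage-like cells held 23.4 CPM (9.40 to 48.2) from 7 UMIs in WT and 35.9 CPM (23.4 to 52.5) from 26 UMIs in KO. The 20 early spermatocyte markers summed there to 902 and 1803 CPM, and their part in these values was not tested.

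Shares of cells with a UMI gave the same order for both genes. Each cell was thinned to 5729 UMIs, which left out 362 WT and 914 KO cells. Meioc was detected in 88.1% (exact Clopper-Pearson interval 77.1 to 95.1) of 59 WT and 97.9% (94.7 to 99.4) of 191 KO early spermatocyte-like cells, and without thinning in 95.5% and 97.8%. In spermatogonia-like cells it was detected in 43.6% of 133 WT and 33.1% of 708 KO cells, and without thinning in 55.2% and 39.8%. Leydig-like cells, which should lack it, gave 5.68% of 88 WT and 3.40% of 999 KO cells, at median depths of 10004 and 7852.5 UMIs before thinning. Ythdc2 was detected in 44.1% (31.2 to 57.6) of WT and 57.6% (50.2 to 64.7) of KO early spermatocyte-like cells, and without thinning in 52.2% and 61.8%, against 1.14% and 2.60% of Leydig-like cells. In spermatogonia-like cells with a Meioc UMI, Ythdc2 was also detected in 30 of 58 WT cells and 79 of 234 KO cells, against 13 of 75 and 98 of 474 cells without one. The mRNAs of both genes were thus found together more often in that class in both libraries, 51.7% against 17.3% in WT and 33.8% against 20.7% in KO, although cells of 1 library are not replicates. A finer clustering, described below, split the class into clusters that differed in both genes in KO. Meioc was at 29.3 and 171 CPM there and Ythdc2 at 38.4 and 55.3 CPM, and the shares were not compared within those clusters. The same order held in late spermatocyte-like cells, with 7.93% against 2.70% in WT and 10.5% against 2.10% in KO. That class also joined clusters that differed in both genes. Ythdc2 was at 13.3 CPM in WT and 23.7 CPM in KO in the Piwil1 cluster, against 4.43 and 4.93 CPM in the Pabpc6 cluster. Meioc was at 162 and 203 CPM against 95.4 and 106 CPM, and the shares were not compared within those clusters either. Early spermatocyte-like cells, where nearly every cell had Meioc, gave Ythdc2 in 24 of 52 cells with and 2 of 7 without Meioc in WT. In KO the order was the other way, with 106 of 187 cells with and 4 of 4 cells without Meioc.

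A finer clustering at resolution 0.8 split the spermatogonia-like class and left the early spermatocyte-like class as it was. One cluster was led by Afp, Upp1, Rhox10 and Sall4, with Ccnd2, and held 12 WT and 208 KO cells, and the other was led by Crabp1, Cenpa and Ccnd1 and held 127 WT and 664 KO cells. Meioc had 0 UMIs in the 12 WT cells of the Afp cluster, with an interval up to 43.3 CPM, and 29.3 CPM (21.9 to 38.5) in its KO cells. It was at 208 CPM (182 to 237) in WT and 171 CPM (160 to 183) in KO cells of the Crabp1 cluster. Ythdc2 followed the same order in the KO, with 38.4, 55.3 and 153 CPM in the Afp, Crabp1 and early spermatocyte-like clusters. Stra8, the retinoic acid responsive gene of meiotic entry, was at 668, 612 and 1526 CPM in the same 3 KO clusters, and at 176, 368 and 1705 CPM in WT. A split of thinned spermatogonia-like cells by a Stra8 UMI gave Meioc intervals that overlapped, with 145 CPM (108 to 192) in 60 WT cells with and 167 CPM (130 to 211) in 73 WT cells without one. In KO the values were 123 CPM (111 to 137) in 500 cells with and 150 CPM (129 to 174) in 208 cells without a Stra8 UMI.

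**Figure D2:**
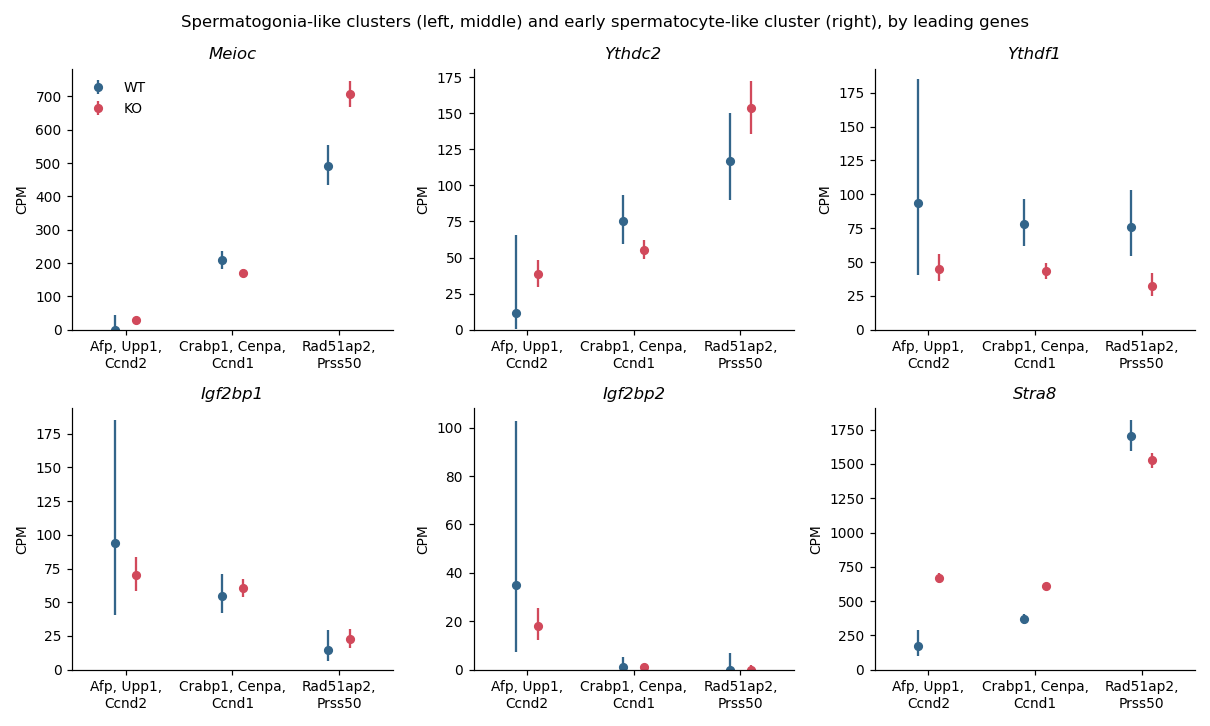
Levels (vertical axis, CPM, linear, a separate scale for each gene) of Meioc, Ythdc2, Ythdf1, Igf2bp1, Igf2bp2 and Stra8 in the 2 spermatogonia-like clusters and the early spermatocyte-like cluster of the finer clustering, each named by leading genes on the horizontal axis; WT is blue, KO is red and bars are exact Poisson 95% intervals, wide for the 12 WT cells of the Afp cluster. In KO, Meioc is at 29.3, 171 and 707 CPM from left to right, and Ythdf1 lies lower in KO than in WT in each cluster.

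Ythdf1, a cytoplasmic reader linked to translation, was at 72.0 CPM (58.7 to 87.5) in WT and 41.5 CPM (36.9 to 46.4) in KO spermatogonia-like cells. In early spermatocyte-like cells the level was 76.2 CPM (54.7 to 103) in WT and 32.3 CPM (24.6 to 41.7) in KO. In late spermatocyte-like cells the level was 4.41 and 3.56 CPM, 17.3 and 9.06 times below the early spermatocyte-like level. It had 0 UMIs in late-stage round spermatid-like cells of either library, with intervals up to 0.705 CPM in WT and 0.787 CPM in KO. The 3 somatic classes compared held from 1.38 to 19.8 CPM.

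Ythdf2, the reader linked to deadenylation and decay, was at 84.2 CPM (69.7 to 101) in WT and 91.8 CPM (85.0 to 99.0) in KO spermatogonia-like cells and at 100 (75.4 to 131) and 155 (138 to 175) CPM in early spermatocyte-like cells. The level was 53.4 and 65.4 CPM in late spermatocyte-like cells and at 12.2 and 13.1 CPM in early-stage round spermatid-like cells. The later classes differed between the libraries. In WT it was at 4.54 CPM (3.66 to 5.56) in mid-stage and 3.82 CPM (2.33 to 5.90) in late-stage round spermatid-like cells, and at 5.11 CPM (4.27 to 6.07) in sperm-like cells. In KO the same classes held 8.15 CPM (6.85 to 9.62), 13.2 CPM (10.1 to 16.96) and 11.8 CPM (10.02 to 13.8).

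Ythdf3, which acts beside both other cytoplasmic readers, was at 23.5 CPM in WT and 29.6 CPM in KO spermatogonia-like cells, and at 36.2 and 29.3 CPM in late spermatocyte-like cells. Its highest level was in early-stage round spermatid-like cells, with 37.9 CPM (34.5 to 41.5) in WT and 34.1 CPM (30.7 to 37.8) in KO. It was at 9.79 CPM (8.61 to 11.1) in WT and 6.37 CPM (5.10 to 7.87) in KO sperm-like cells. Early-stage round spermatid-like cells were only 3.87 and 5.35 times above sperm-like cells, whereas for Ythdc1 the same fold was 33.2 and 44.5. In Leydig-like cells Ythdf3 was at 20.7 CPM in WT and 19.2 CPM in KO.

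Igf2bp1 marked the spermatogonia-like class. It was at 52.1 CPM (40.8 to 65.5) in WT and 58.9 CPM (53.5 to 64.7) in KO, against 14.9 CPM (6.42 to 29.3) and 22.4 CPM (16.1 to 30.5) in early spermatocyte-like cells. Late spermatocyte-like cells held 3 UMIs in WT and 5 in KO, or 0.224 and 0.457 CPM. In early-stage round spermatid-like cells the level was 3.29 CPM (2.35 to 4.48) in WT and 2.43 CPM (1.59 to 3.57) in KO, above the late spermatocyte-like interval in both libraries. Igf2bp1 had 1 UMI in WT and 11 in KO Leydig-like cells, so among the classes compared it was a gene of spermatogonia-like cells with a small second presence in round spermatid-like cells.

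Igf2bp2 was close to the limit of detection. Spermatogonia-like cells held 5 UMIs in WT (3.57 CPM, 1.16 to 8.32) and 37 in KO (4.996 CPM, 3.52 to 6.89). In KO, 32 of those lay in the 208 cells of the Afp cluster (18.05 CPM, 12.3 to 25.5) and 5 in the 664 cells of the Crabp1 cluster (0.987 CPM, 0.321 to 2.30). In WT, 3 UMIs lay in the 12 cells of the Afp cluster and 1 in the 127 cells of the Crabp1 cluster. No early spermatocyte-like cell of either library had a UMI. The other class with a clear count was KO Leydig-like cells, with 31 UMIs (2.999 CPM, 2.04 to 4.26). The WT class had 0, with an interval up to 3.47 CPM, a limit that lies inside the KO interval. A difference between the genotypes in Leydig-like cells was therefore not detectable at this depth.

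Igf2bp3 ran opposite to its relatives and had the highest count of the members, with 14468 UMIs in WT and 7698 in KO. It was at 51.4 CPM (40.2 to 64.7) in WT and 32.1 CPM (28.2 to 36.5) in KO spermatogonia-like cells, and at 56.5 and 42.0 CPM in late spermatocyte-like cells. The level was 59.99 CPM in WT and 47.1 CPM in KO early-stage, 119 and 94.7 CPM in mid-stage, and 331 and 228 CPM in late-stage round spermatid-like cells. Sperm-like cells held 337 CPM (330 to 344) in WT and 254 CPM (246 to 263) in KO, 5.62 and 5.39 times the early-stage round spermatid-like level. Malsu1, the overlapping gene on the other strand, went the other way between these 2 classes, with 57.6 and 59.2 CPM in early-stage round spermatid-like and 12.0 and 22.8 CPM in sperm-like cells of WT and KO. In early spermatocyte-like cells Malsu1 was at 273 CPM in WT and 248 CPM in KO, and Igf2bp3 at 53.9 and 12.6 CPM. The part of the overlap in the Igf2bp3 values was not tested.

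Outside the spermatid classes, Igf2bp3 was read beside transcripts of sperm-like cells. The 20 most abundant transcripts of sperm-like cells were taken in each class as a percentage of their sperm-like level, and the median over the 20 was set beside Igf2bp3. In WT Sertoli-like cells the median was 56.7% and Igf2bp3 was at 53.3%, and in KO Sertoli-like cells they were 16.3% and 14.1%. In Leydig-like cells they were 7.98% and 8.11% in WT, and 5.72% and 5.56% in KO. In early spermatocyte-like cells they were 10.3% and 16.0% in WT, and 4.62% and 4.96% in KO. Late spermatocyte-like cells stood apart, with a median of 2.02% in WT and 1.30% in KO but Igf2bp3 at 16.8% and 16.5%. In late-stage round spermatid-like cells the median and Igf2bp3 were at 61.0% and 98.2% in WT and 68.8% and 89.8% in KO. Igf2bp3 was also above the median in spermatogonia-like cells, at 15.2% against 11.5% in WT and 12.6% against 8.32% in KO. In early-stage round spermatid-like cells it was at 17.8% against 12.6% in WT and 18.5% against 11.9% in KO. Mid-stage round spermatid-like cells had 35.4% against 35.9% in WT and 37.3% against 39.4% in KO. In macrophage-like cells Igf2bp3 was above the median in WT, at 47.6% against 33.6%, and below it in KO, at 24.4% against 27.6%. As a ratio to the median, Igf2bp3 was by far the highest in late spermatocyte-like cells of both libraries. In percentage points the distance was widest in late-stage round spermatid-like cells.

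**Figure D3:**
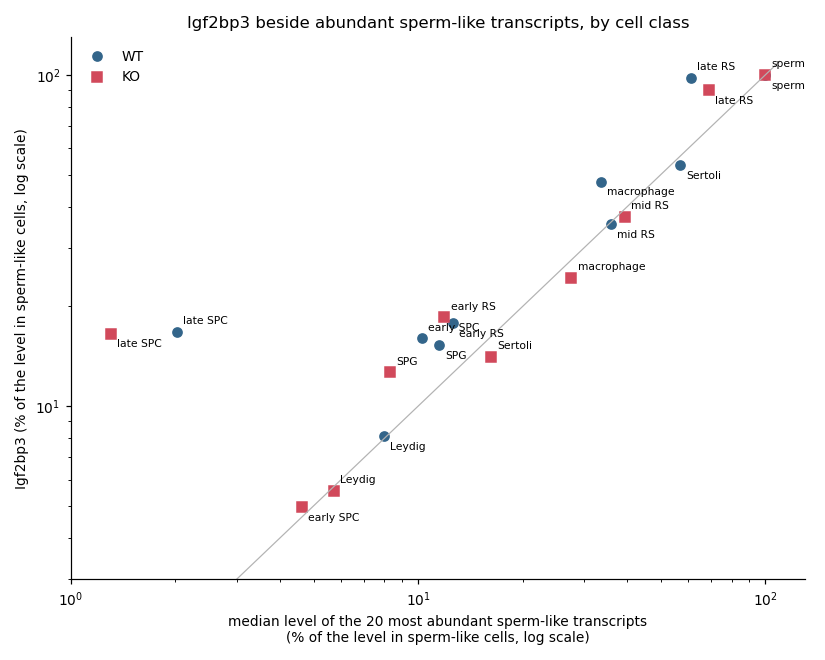
Igf2bp3 (vertical axis) and the median of the 20 most abundant sperm-like transcripts (horizontal axis) in 10 cell classes, both as a percentage of the level in sperm-like cells of the same library on log scales, with WT as blue circles and KO as red squares; the grey line marks equality and class names are shortened (SPG, spermatogonia-like; SPC, spermatocyte-like; RS, round spermatid-like). Leydig-like and Sertoli-like points lie near the line, and the late spermatocyte-like points lie far above it, at 16.8% against 2.02% in WT.

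The second question was how the members differed between KO and WT within a class. A gene was called different where its CPM differed at least 2-fold (1 on the log2 scale) among genes with at least 20 UMIs in both libraries together. Of 73 pairs of member and class with enough UMIs, 8 were called higher and 5 lower in KO, and the median log2 ratio over the pairs was 0.06. The called pairs were 17.8% of 73, where 18.3% of all 121424 pairs of gene and class were called, 14122 higher and 8135 lower, with a median of 0.07. The share of the members was thus close to that of all genes. Intervals of log2 ratios are exact 95% intervals that cover counting error only.

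**Figure D4:**
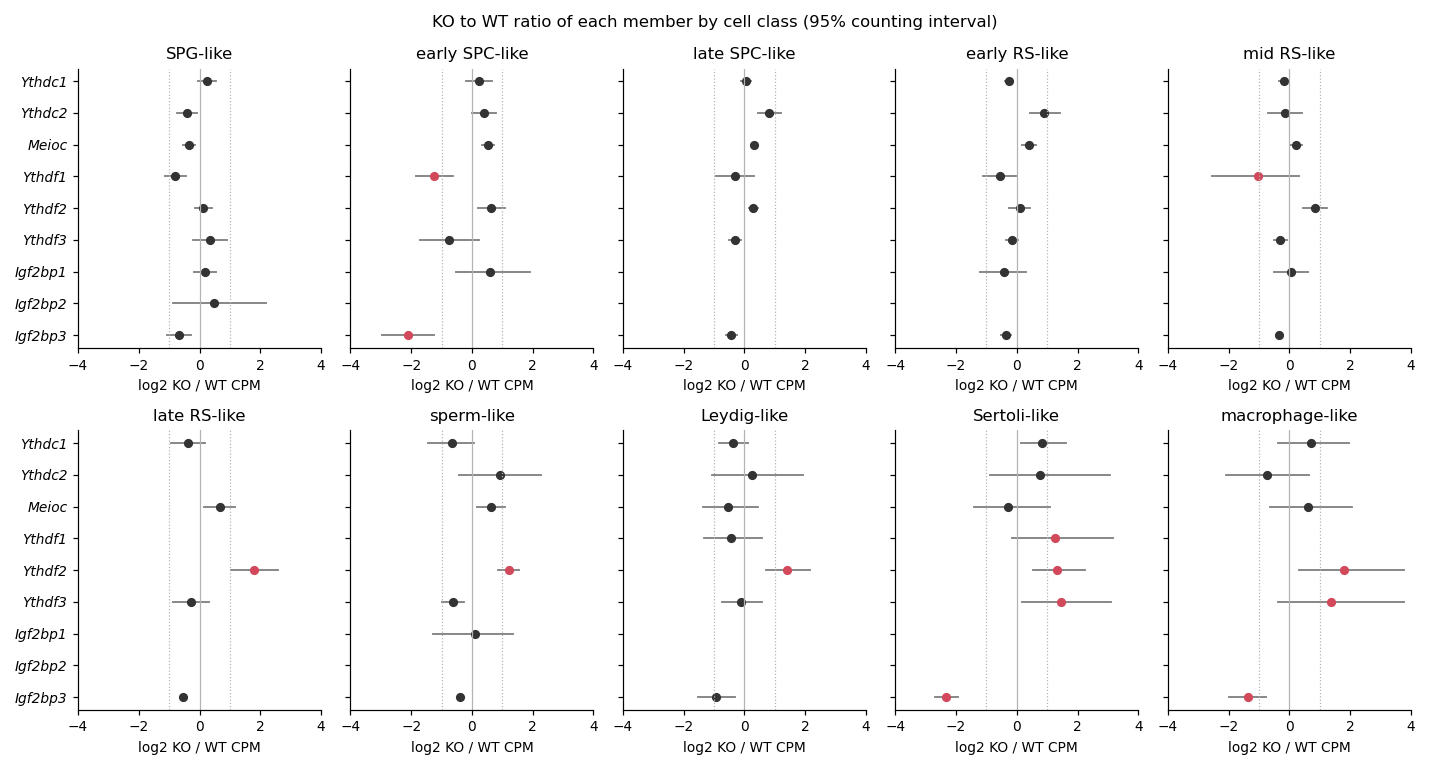
Log2 ratio of KO to WT CPM (horizontal axis) of each member (vertical axis) in 10 cell classes (SPG, spermatogonia-like; SPC, spermatocyte-like; RS, round spermatid-like), for members with at least 20 UMIs in the class and at least 1 UMI in each library; points are red at 2-fold or more and dark otherwise, and bars are exact 95% counting intervals, cut at 4 on either side. Igf2bp3 lies below 0 in all 10 classes and Ythdf2 above 0 in all 10, and all classes come from the same 2 libraries.

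In spermatogonia-like cells none of 9 members was called, where 13.7% of 13552 genes were. Ythdf1 came closest, with a log2 ratio of -0.80 (-1.13 to -0.46). Igf2bp3 was at -0.68 (-1.06 to -0.28), Ythdc2 at -0.42 (-0.75 to -0.07) and Meioc at -0.34 (-0.55 to -0.13). The 25 sperm markers summed to 26418 CPM in WT and 18062 CPM in KO in the same cells, and their part in the Igf2bp3 value was not tested. With doublets removed Igf2bp3 was at -1.17 and without integration at -1.13, both past 2-fold. Ythdc1, Ythdf2, Ythdf3, Igf2bp1 and Igf2bp2 had intervals that included 0. The Meioc value was not stable to how the class was drawn, at -0.10 with 1000 genes per cell and -0.13 without integration.

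In early spermatocyte-like cells 2 of 8 members were called, both lower in KO, where 17.1% of 8171 genes were called. Ythdf1 had a log2 ratio of -1.24 (-1.84 to -0.63), or 2.36 times lower in KO, and stayed past 2-fold in all 8 alternatives of clustering, scaling, thinning and doublets, between -1.65 and -1.21. Its level in sperm-like cells was at most 0.197 CPM in either library. Igf2bp3 had a log2 ratio of -2.10 (-2.95 to -1.26), and the 25 sperm markers summed to 25331 CPM in WT and 7381 CPM in KO early spermatocyte-like cells, whose part in either value was not tested. Without integration the Igf2bp3 value was -0.21, and with 1000 genes per cell it was -0.61. Meioc (0.52, 0.33 to 0.72) and Ythdf2 (0.63, 0.21 to 1.08) were higher in KO by less than 2-fold, and Ythdc2 was at 0.39 (-0.01 to 0.81).

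In late spermatocyte-like cells none of 7 members was called, where 9.33% of 13880 genes were. Ythdc2 was at 0.82 (0.45 to 1.19), and its difference lay in the Piwil1 cluster (13.3 CPM in WT and 23.7 CPM in KO) more than in the Pabpc6 cluster (4.43 and 4.93 CPM). Meioc was at 0.33 (0.23 to 0.43), Ythdf2 at 0.29 (0.14 to 0.44), Igf2bp3 at -0.43 (-0.60 to -0.26) and Ythdf3 at -0.30 (-0.51 to -0.10). In the same class the 20 early spermatocyte markers summed to 2417 CPM in WT and 3724 CPM in KO, and the part of that difference in the values of Ythdc2 and Meioc was not tested.

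In early-stage round spermatid-like cells none of 8 members was called, where 8.73% of 14716 genes were. Ythdc2 was again the highest, at 0.91 (0.42 to 1.41), and Meioc was at 0.40 (0.18 to 0.62). Ythdf1 was at -0.57 (-1.11 to -0.03), Igf2bp3 at -0.35 (-0.52 to -0.18) and Ythdc1 at -0.25 (-0.39 to -0.11). In mid-stage round spermatid-like cells 1 of 8 members was called, where 12.7% of 17063 genes were. It was Ythdf1, at -1.03 (-2.54 to 0.31) from 17 UMIs in WT and 7 in KO, an interval that includes 0, and it was at -0.73 with equal weight for both clusters of the class.

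In late-stage round spermatid-like cells 1 of 5 members was called, where 12.6% of 9939 genes were, and in sperm-like cells 1 of 7, where 16.9% of 12677 genes were. It was Ythdf2 both times, with a log2 ratio of 1.79 (1.04 to 2.60) in late-stage round spermatid-like cells and 1.21 (0.86 to 1.55) in sperm-like cells. All 4 sperm-like clusters gave Ythdf2 higher in KO, at 0.96 (0.35 to 1.597), 1.58 (0.89 to 2.29), 1.57 (0.71 to 2.44) and 1.26 (0.45 to 2.03). The median log2 ratio of all genes in sperm-like cells was 0.21, and with size factors from the median of ratios the Ythdf2 value there was 0.99, just under 2-fold. Transcripts of other cells were also higher in KO sperm-like cells. The 12 Leydig markers summed to 30.8 CPM in WT and 171 CPM in KO, the 14 Sertoli markers to 7.35 and 40.4 CPM, and the 20 spermatogonia markers to 54.1 and 89.8 CPM. In late-stage round spermatid-like cells the same lists summed to 37.1 and 125 CPM, 23.7 and 75.1 CPM, and 189 and 238 CPM. Ythdf2 in KO was at 11.8 CPM in sperm-like cells and at 44.5, 68.2 and 91.8 CPM in Leydig-like, Sertoli-like and spermatogonia-like cells. The own lists of those 3 classes summed there to 80453, 20698 and 6505 CPM. The part of transcripts of other cells in the Ythdf2 values was not tested.

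Ythdf3 and Igf2bp3 were lower in KO sperm-like cells, by less than 2-fold. Ythdf3 was at -0.62 (-0.99 to -0.26) and Igf2bp3 at -0.41 (-0.46 to -0.35), or -0.62 for Igf2bp3 with median of ratios size factors. The 25 sperm markers summed to 281491 CPM in WT and 255888 CPM in KO sperm-like cells. Of the 4 sperm-like clusters, those led by 1700036O09Rik, by Tnp2 and by Prm1 gave Igf2bp3 values of -0.52, -0.56 and -0.34, and the cluster led by Itpr3os, with Spem2 and Tssk6, gave -0.10 (-0.32 to 0.11). Over all 10 classes Igf2bp3 had an interval below 0 in 10, and over the 7 germ cell classes the range was from -2.10 to -0.33. The 25 sperm markers were also lower in KO in late spermatocyte-like cells, at 3758 CPM in WT and 1901 CPM in KO, and in early-stage round spermatid-like cells, at 8063 and 5292 CPM. Their part in the Igf2bp3 values was not tested. Ythdf2 had an interval above 0 in 8 of 10 classes, and its log2 ratio was above 0 in all 10, from 0.10 to 1.81. Meioc had an interval above 0 in 6 of 7 germ cell classes and below 0 in spermatogonia-like cells. In those 6 classes the 20 early spermatocyte markers were also higher in KO, from 18573 and 21147 CPM in early spermatocyte-like cells to 192 and 264 CPM in sperm-like cells of WT and KO. In spermatogonia-like cells they were at 4135 and 4846 CPM, and their part in the Meioc values was not tested. Ythdf1 had a log2 ratio below 0 in 5 of 5 germ cell classes with enough UMIs, with the interval below 0 in 3. All classes come from the same 2 libraries, so these counts of classes are not repeats of a difference. The share of all genes with such counts was not taken.

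In Leydig-like cells 1 of 8 members was called, where 23.9% of 13372 genes were. Ythdf2 had 18 UMIs (16.95 CPM, 10.05 to 26.8) in WT and 460 (44.5 CPM, 40.5 to 48.8) in KO, a log2 ratio of 1.39 (0.72 to 2.16), and it stayed past 2-fold in all 8 alternatives, from 1.26 to 1.67. Ythdf2 was detected in 7.95% of 88 WT and 21.6% of 999 KO Leydig-like cells after thinning, and in 17.7% and 29.6% without it. The 20 spermatogonia markers summed to 244 CPM in WT and 358 CPM in KO Leydig-like cells, with 6 of 20 and 0 of 20 at 0. The 12 Leydig markers summed to 55659 CPM in WT and 80453 CPM in KO, while other lists were lower in KO. The early-stage round spermatid markers were at 2231 and 825 CPM, the mid-stage ones at 2168 and 546 CPM, the sperm markers at 15779 and 12048 CPM, and the peritubular or stromal markers at 1356 and 725 CPM. Their part in the Ythdf2 value was not tested. Ythdf1 (-0.44, -1.32 to 0.57), Ythdf3 (-0.11, -0.75 to 0.59) and Ythdc1 (-0.37, -0.83 to 0.11) had intervals that included 0.

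In Sertoli-like cells 4 of 7 members were called, where 51.3% of 11663 genes were and the median log2 ratio of all genes was 0.64, so the share of members was near that of all genes. The WT class had 50 cells, and its 25 sperm markers summed to 162010 CPM against 37691 CPM in KO, while its 14 Sertoli markers summed to 9394 CPM against 20698 CPM. Igf2bp3 was at -2.33 (-2.71 to -1.94), Ythdf2 at 1.33 (0.53 to 2.25), Ythdf3 at 1.44 (0.19 to 3.09) and Ythdf1 at 1.24 (-0.16 to 3.15). Ythdf1 was under 2-fold after thinning (0.62) and without integration (0.84), and Ythdf2 without integration (0.92). In macrophage-like cells 3 of 6 members were called, where 26.5% of 6391 genes were, with 3 UMIs of Ythdf3, 4 of Ythdf2 and 48 of Igf2bp3 in the 23 WT cells. Ythdf2 was at 1.81 (0.32 to 3.77) and Igf2bp3 at -1.37 (-1.99 to -0.75). Ythdf3 was at 1.39 (-0.38 to 3.79), an interval that includes 0. The sperm markers there summed to 77388 CPM in WT and 51913 CPM in KO.

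The answer for germ cells as a whole depended on how the classes were weighted. In pooled germ cells 3 of 9 members were past 2-fold, all higher in KO, where 27.5% of 22802 genes were called, 5810 of them higher and 453 lower. Igf2bp1 was at 1.74 (1.51 to 1.98), Ythdc2 at 1.51 (1.34 to 1.68) and Ythdf2 at 1.02 (0.92 to 1.12), and Meioc was at 0.95 (0.88 to 1.01). With equal weight for each of 12 germ cell clusters none of 9 was past 2-fold, where 12.0% of genes were, and the same 4 were at 0.26, 0.22, 0.49 and 0.32. Ythdf1 changed sign, from 0.85 (0.64 to 1.06) in pooled germ cells to -0.95 with equal weights. Its pooled value was higher in KO although each germ cell class with enough UMIs was lower in KO. Spermatogonia-like cells, where Ythdf1 is high, were 2.68% of WT cells and 13.1% of KO cells. Igf2bp3, highest in sperm-like cells, was lower in KO both ways, at -0.72 (-0.76 to -0.68) and -0.45.

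**Figure D5:**
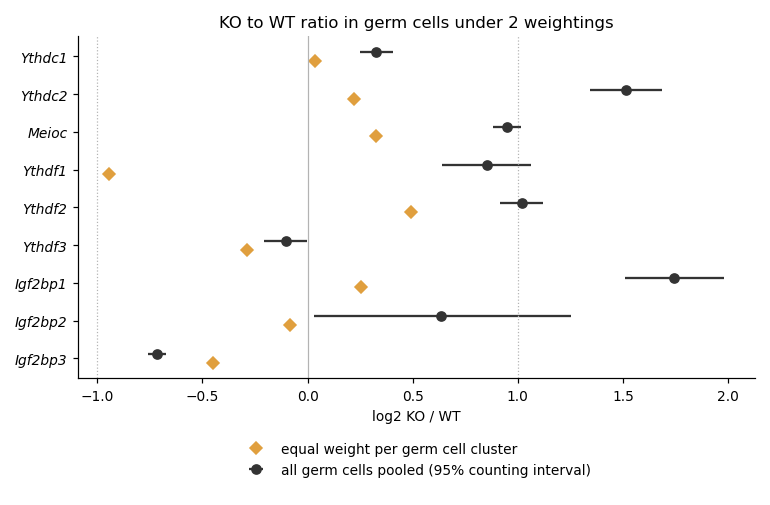
Log2 ratio of KO to WT (horizontal axis) of each of the 9 members (vertical axis) in germ cells, from all germ cells pooled (dark circles, exact 95% counting interval) and with equal weight for each germ cell cluster (orange diamonds, no interval). Ythdf1 lies at 0.85 when pooled and at -0.95 with equal weights, and Ythdc2 and Igf2bp1 fall from 1.51 and 1.74 to 0.22 and 0.26.

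The rest of the m6A pathway was read from lists of known genes. Of 9 genes of the m6A writer complex, such as Mettl3, Mettl14 and Wtap, 1 was past 2-fold in any germ cell class, Wtap in mid-stage round spermatid-like cells (0.789 CPM in WT and 1.70 CPM in KO, log2 1.11, 0.18 to 2.09). The median of the list there was 0.21, and 12.7% of all genes there were called. In late spermatocyte-like cells 0 of 9 were past 2-fold, with a median of 0.38, where 9.33% of all genes were called. In Sertoli-like cells 8 of 9 writer genes were higher in KO, with a median of 1.62. In that class 51.3% of all genes were called, with a median of 0.64. In Leydig-like cells 1 of 9 was lower, where 23.9% of all genes were called. In macrophage-like cells 1 of 2 with enough UMIs was higher, where 26.5% were called. Fto, the other m6A demethylase, was past 2-fold in no germ cell class with enough UMIs. Of 11 other RNA binding proteins described as m6A readers, 0 were past 2-fold in spermatogonia-like, early and late spermatocyte-like and early-stage round spermatid-like cells. Of all genes, 13.7%, 17.1%, 9.33% and 8.73% were called in those classes, in that order. Fmr1, the fragile X protein gene, was higher in KO in mid-stage (log2 2.08, 1.54 to 2.66) and late-stage (2.02, 0.85 to 3.36) round spermatid-like and in sperm-like cells (1.58, 0.46 to 2.75). Rbmx was higher in mid-stage round spermatid-like cells (1.33, 0.81 to 1.86). Of all genes, 12.7% were called in mid-stage and 12.6% in late-stage round spermatid-like cells and 16.9% in sperm-like cells, most of them higher in KO. In Sertoli-like cells 5 of the 11 were higher in KO and 1 lower. In macrophage-like cells 1 of 9 with enough UMIs was higher, and in Leydig-like cells 0 of 11 were called.

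Of 10 partners of the readers and of Meioc, none was past 2-fold in early spermatocyte-like cells, the class with the most Meioc and Ythdc2. There 17.1% of all genes were called. Rbm46, which binds RNA with both of them, was within 2-fold in all germ cell classes. In sperm-like cells 2 of 8 partners with enough UMIs were higher in KO, where 16.9% of all genes were called, most of them higher. They were Cnot7, a CCR4-NOT deadenylase (1.38, 0.74 to 2.03), and Cpsf6, a 3′ end processing factor (1.17, 0.84 to 1.50). Rida, which links YTHDF2 to RNase P cleavage, was higher in spermatogonia-like (1.22, 0.51 to 2.03) and late spermatocyte-like cells (1.203, 0.31 to 2.14). It was 1 of 10 partners in each, where 13.7% and 9.33% of all genes were called. In Sertoli-like cells 4 of 10 partners were higher and in macrophage-like cells 3 of 5, where 51.3% and 26.5% of all genes were called. In Leydig-like cells 1 of 10 was higher and 1 lower, where 23.9% were called. Of 8 genes listed for meiotic entry, 1 of 7 with enough UMIs was higher in early spermatocyte-like cells, where 17.1% of all genes were called. It was the cyclin gene Ccna2 (2.02, 0.73 to 3.69). In spermatogonia-like cells 1 of 8 was higher, the cyclin gene Ccnd2 (1.56, 1.04 to 2.12), where 13.7% of all genes were called. Both cyclin genes also belong to spermatogonia-like cells here. Ccna2 was among the leading genes of that cluster, and Ccnd2 is in the spermatogonia marker list. In late spermatocyte-like cells Stra8 (2.13, 1.18 to 3.19), Dazl (1.29, 1.15 to 1.43) and Dmc1 (1.63, 0.67 to 2.68) were higher in KO, 3 of 6, where 9.33% of all genes were called. Stra8 and Dazl are also in the spermatogonia marker list, and Dmc1 is in the early spermatocyte list. In late spermatocyte-like cells the spermatogonia list summed to 1079 CPM in WT and 1076 CPM in KO, and the early spermatocyte list to 2417 and 3724 CPM. Their part in the values of these genes was not tested. The list was also higher in KO in classes after meiosis and outside the germ line, with 4 of 7 in mid-stage and 3 of 5 in late-stage round spermatid-like cells, 2 of 5 in sperm-like, 5 of 6 in Leydig-like and 4 of 5 in macrophage-like cells. Sertoli-like cells had 2 of 6 higher and 1 lower, and early-stage round spermatid-like cells 0 of 4. Of all genes, 12.7% were called in mid-stage and 12.6% in late-stage round spermatid-like cells, and 16.9% in sperm-like cells. The shares were 23.9% in Leydig-like, 26.5% in macrophage-like, 51.3% in Sertoli-like and 8.73% in early-stage round spermatid-like cells.

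Likeness of pattern was described by Pearson's r of log2(CPM + 1) over 21 points, each a class in 1 library with at least 20 cells, so that points share libraries, depth and clustering. Meioc was most like Sycp3 (0.957), a protein of the synaptonemal complex axis, then Ncapg (0.952) and Tex101 (0.951), among 16401 genes with at least 200 UMIs. Ythdc2 was most like Ncoa3 (0.970), Sirt1 (0.964) and Rbbp8 (0.960). Igf2bp3 was most like Stk35 (0.992), Usp44 (0.982) and Tmem8 (0.973), and Igf2bp1 was most like Dusp14 (0.956), Xlr5b (0.955) and Uba1y (0.949). The nearest genes were Arpc1a (0.972) for Ythdc1, Trappc10 (0.973) for Ythdf1, Marf1 (0.968) for Ythdf2 and Abcf3 (0.926) for Ythdf3. With Spearman's rank correlation the nearest genes counted as moved for 5 members and as the same for 3. None of the 3 genes nearest to Meioc or to Ythdc1 stayed among the nearest 3. Among the members, the closest pairs were Ythdc2 with Ythdf1 (0.875), with Meioc (0.828) and with Ythdf2 (0.824). Igf2bp3 had a negative r with all 8 other members, from -0.580 with Ythdc1 to -0.104 with Igf2bp2.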

How the data were processed

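The authors deposited, per the labels and methods, a table of UMI counts per gene and cell for each of 2 libraries (GEXSCOPE kit). Reads were trimmed, aligned (STAR 2.5.3a in the submitters' processing notes) and counted with featureCounts 1.6.2; GRCh38, a human build, is named in the methods, whereas the symbols are of mouse genes. Counts were not normalized, and how barcodes were selected is not given in the sources used here. Genes listed in a single table were set to 0 in the other.

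Cells with over 500 genes (all of them) were integrated and clustered in Seurat 5.3.0 (R 4.3.3) with 2000 variable features, 20 anchor dimensions, 30 principal components and resolution 0.3, seed 1. Clusters took the name of the class whose markers were most raised, with at least 3 markers in 10% of the cells and 2-fold above the rest. Scrublet (scanpy 1.11.5) called 4.22% of WT and 4.96% of KO cells doublets; they were kept, and removing them was an alternative. Sums, intervals and ratios were computed in Python 3.11.15 with scipy 1.17.1, and the ratio step was tested on simulated data. Depth ranged from 80283221 to 82056760 UMIs per library, and a sum of 0 was taken at 3 counts in ratios.

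The members, gene lists and tests were chosen with earlier results of these data known, and some markers come from the study's own tables. Genes were named if they were members, list genes past 2-fold in a class described, or the 3 genes most alike a member; Malsu1 was named after its overlap with Igf2bp3 was seen, and Rbm46 and Fto, list genes not past 2-fold there, after their values were seen. As alternatives, resolution 0.8, a minimum of 1000 genes, unintegrated clustering, doublet removal, leaving mitochondrial and ribosomal protein genes out of totals, thinning to 5729 UMIs, median of ratios size factors, other UMI minimums, 1.5-fold and equal cluster weights were used.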

Additional observations from a re-analysis of the deposited data

How the results depend on the processing

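No paired analysis was possible because each genotype had 1 library, and for the same reason no replicate could be left out. Of 73 pairs of member and class, 8 were past 2-fold higher and 5 lower in KO (17.8%, against 18.3% of all pairs of gene and class). With a minimum of 1 UMI 10 were lower, with 100 UMIs 4 were higher and 2 lower, and at 1.5-fold 20 were higher and 12 lower, which follows from the rule itself. No called pair changed sign under any alternative. In pooled germ cells, equal weight per cluster moved all 9 log2 ratios, to 0.037 for Ythdc1, 0.22 for Ythdc2, 0.32 for Meioc, -0.95 for Ythdf1, 0.49 for Ythdf2, -0.29 for Ythdf3, 0.26 for Igf2bp1, -0.086 for Igf2bp2 and -0.45 for Igf2bp3. Ythdf1 and Igf2bp2 changed sign there. Median of ratios size factors gave 0.072 for Ythdc1, 1.26 for Ythdc2, 0.69 for Meioc, 0.60 for Ythdf1, 0.76 for Ythdf2, -0.36 for Ythdf3, 1.49 for Igf2bp1 and -0.97 for Igf2bp3. Of the ratios within classes, 62 of 70 without integration, 59 of 64 after thinning and 72 of 72 at resolution 0.8 stayed inside their interval. Thinning took Ythdf1 to -1.31 in both late spermatocyte-like and early-stage round spermatid-like cells, past 2-fold, and no integration took Meioc to 1.19 in late-stage round spermatid-like cells. Depth limits Igf2bp2 throughout and Ythdf1 after meiosis.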
